A study of Mus musculus with 22 samples.

Results

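The mitosis and DNA replication genes described here are 35 genes that dividing cells use to copy DNA, build the spindle and separate chromosomes. Each gene was represented by the probe set annotated to it alone with the highest mean over all 22 arrays, and 34 of the 35 genes had such a probe set, among 18193 genes with a probe set of their own. *Ccnb1* had none. The choice of probe set used the mean over all arrays and no difference between groups. Of the 34 probe sets, 33 had a mean above the median of all probe sets (4.22 on the log2 scale), and that of *Tyms* lay under it at 2.70.

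The samples were granulation tissue, the new vascularised connective tissue of a healing wound, which had grown into viscose cellulose sponges placed under the back skin of WT and *Mmp13*-/- (KO) mice. The mice were males 5 to 8 weeks old and of a C57BL/6 x 129 mixed background, backcrossed for at least 7 generations into C57BL6, and the WT mice came from the backcrossed heterozygotes. The knockout was carried by every cell of the animal, so that resident and infiltrating cells of the sponge lacked *Mmp13* alike. Sponges were harvested at 7, 14 and 21 d, with 1 sample per mouse, which gave 3 arrays per genotype at 7 d and 4 per genotype at 14 d and at 21 d. The labels name a pair of hybridization series: series 1 (2 µg of RNA, One-cycle labelling) held the 7 d samples and, of 14 d, replicates 1 to 3, and series 2 (0.25 µg, 3'IVT Express kit) held the 21 d samples and, of 14 d, replicate 4. All values are deposited RMA values on the log2 scale, all differences are log2 differences from a limma fit with the series as a term, and a difference was called at an adjusted p under 0.05 over all 45037 probe sets.

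Most of these genes are switched on in waves as a cell passes from G1 into S phase and on to mitosis, and are silent in resting cells. In G1 the repressor complexes that sit on CHR (cell cycle genes homology region) and E2F elements keep them off, and in dividing cells E2F, B-Myb and FoxM1 activate them. CCAAT elements are common in their promoters as well. In wounds, fibroblasts, endothelial cells and macrophages divide while granulation tissue forms. In whole tissue, fewer dividing cells and less of these RNAs per cell cannot be told apart.

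Because these genes are known for shared promoter elements, the 250 bases before the RNA start are printed for 6 members. They were picked from the 9 members that were called or had the smallest unadjusted p in a direction of a comparison. The sequences are from RefSeq (GRCm38.p6), written 5' to 3' on the strand of the gene. Capitals mark CCAAT, the CHR words TTTGAA and TTCGAA, and the E2F words TTTCCCGC, TTTGGCGC, TTTCGCGC and TTTGCCGC, on either strand.
Birc5 (chr11:117848987-117849236, forward strand): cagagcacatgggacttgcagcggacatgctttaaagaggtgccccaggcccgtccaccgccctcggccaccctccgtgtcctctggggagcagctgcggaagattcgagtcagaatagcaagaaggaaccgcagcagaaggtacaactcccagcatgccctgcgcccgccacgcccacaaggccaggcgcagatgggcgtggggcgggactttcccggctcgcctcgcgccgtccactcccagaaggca
Cdc20 (chr4:118437344-118437593, reverse strand): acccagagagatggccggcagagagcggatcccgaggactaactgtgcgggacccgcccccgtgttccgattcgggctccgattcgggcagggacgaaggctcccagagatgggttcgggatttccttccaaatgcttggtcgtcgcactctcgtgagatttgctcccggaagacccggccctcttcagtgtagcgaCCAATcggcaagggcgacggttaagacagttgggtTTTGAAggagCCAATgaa
Cenpf (chr1:189688087-189688336, reverse strand): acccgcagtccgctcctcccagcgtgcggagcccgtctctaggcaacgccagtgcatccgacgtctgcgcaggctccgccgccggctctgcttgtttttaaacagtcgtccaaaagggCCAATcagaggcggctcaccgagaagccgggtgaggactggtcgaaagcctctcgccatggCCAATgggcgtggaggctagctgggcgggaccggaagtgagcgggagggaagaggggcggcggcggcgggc
Iqgap3 (chr3:88081801-88082050, forward strand): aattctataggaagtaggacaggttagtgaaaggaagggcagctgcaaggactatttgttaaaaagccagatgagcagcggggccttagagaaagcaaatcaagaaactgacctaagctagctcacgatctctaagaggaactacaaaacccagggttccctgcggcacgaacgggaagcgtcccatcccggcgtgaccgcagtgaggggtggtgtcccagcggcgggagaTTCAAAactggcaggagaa
Top2a (chr11:99024190-99024439, reverse strand): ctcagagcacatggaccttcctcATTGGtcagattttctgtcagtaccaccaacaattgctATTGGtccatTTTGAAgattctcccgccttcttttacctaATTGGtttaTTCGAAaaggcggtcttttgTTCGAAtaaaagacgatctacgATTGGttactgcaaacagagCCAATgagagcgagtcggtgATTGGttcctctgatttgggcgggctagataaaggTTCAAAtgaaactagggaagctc
Pcna (chr2:132253181-132253430, reverse strand): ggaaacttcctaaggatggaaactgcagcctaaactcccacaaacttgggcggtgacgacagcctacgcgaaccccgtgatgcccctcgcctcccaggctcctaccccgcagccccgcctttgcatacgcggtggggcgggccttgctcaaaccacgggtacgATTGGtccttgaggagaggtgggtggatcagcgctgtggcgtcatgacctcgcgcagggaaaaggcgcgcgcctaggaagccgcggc
*Top2a* held 6 CCAAT words, *Cdc20* and *Cenpf* held 2 each, *Pcna* held 1, and *Birc5* and *Iqgap3* held none. CHR words stood in *Cdc20*, *Iqgap3* and *Top2a*. A promoter was found for 29 of the 34 members (not for *Aurkb*, *Ccna2*, *Kif20a*, *Mcm4* and *Tpx2*), with 2 windows each for *Mcm7* and *Prc1*. CCAAT stood in 26 of these 31 windows (83.9%) and in 33.8% of all 32851 windows of the same length, and a CHR word in 11 (35.5%) and in 17.1%. An E2F word stood in 4 (12.9%) and in 1.86%, namely in *Cdk1*, *Mcm5*, *Mcm6* and 1 window of *Mcm7*. A word in a window is a match of letters, and no binding was measured.

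*Mmp13*, measured as a check of the labels, lay lower on every *Mmp13*-/- array than on every WT array of its day, by log2 differences of -2.32 at 7 d, -3.41 at 14 d and -3.26 at 21 d (adjusted p = 0.00573, 2.17e-06 and 4.71e-06). Array medians ran from 4.16 to 4.27, and the spread of values on an array (SD over probe sets) from 2.19 on WT replicate 3 of 21 d to 2.34. The mean of the 6 skeletal muscle markers ran from 5.55 on WT replicate 1 to 10.18 on WT replicate 3 of 7 d, and that of the 8 endothelial markers from 5.27 on WT replicate 1 of 7 d to 7.61 on WT replicate 3 of 14 d. All 10 fibroblast markers were found, and their mean lay between 10.78 and 11.51 on every array.

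Averaged over the 34 members, WT tissue of 7 d had the lowest group mean. The mean of the members was 6.44, 6.51 and 6.46 on the WT arrays and 6.75, 6.62 and 6.76 on the *Mmp13*-/- arrays of 7 d, so that the genotypes did not overlap. At 14 d it was 6.64, 6.75, 6.78 and 6.83 in WT and 6.73, 6.84, 6.84 and 6.71 in *Mmp13*-/- tissue, and at 21 d 6.72, 6.26, 6.67 and 6.59 in WT and 6.48, 6.53, 6.55 and 6.80 in *Mmp13*-/- tissue. Genotypes overlapped at both later days. WT replicate 2 of 21 d was the lowest array of all, and *Mmp13*-/- replicate 4 of 21 d stood above the other arrays of its group. On this *Mmp13*-/- array the mean of the 8 macrophage markers was 9.95, the highest of all arrays, against 9.055 to 9.466 on the rest of its group. Its fibroblast marker mean was 10.968 against 11.344 to 11.394, and its endothelial marker mean 6.171 against 6.445 to 6.569. The part of these cell types in the members' values was not tested.

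**Figure D1:**
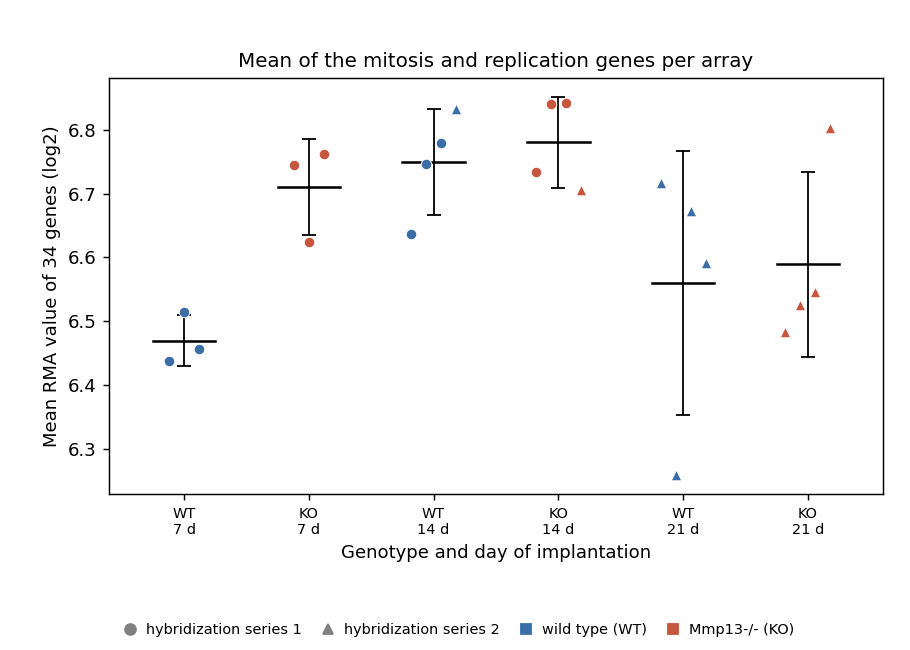
Mean RMA value (log2) of the 34 genes on each array, by genotype and day, with circles for hybridization series 1, triangles for series 2, a bar at the group mean and whiskers of 1 SD. The 3 WT arrays of 7 d sit between 6.44 and 6.51, under the 3 *Mmp13*-/- arrays of 7 d at 6.62 to 6.76, and the genotypes overlap at 14 d and 21 d.

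At 7 d all 34 members had a higher mean in *Mmp13*-/- than in WT tissue, by a median log2 difference of 0.21 against 0.00 over all genes above the median signal. No member was called (0.00888% of all probe sets were, 4 in number), while 9 had an unadjusted p under 0.05 in limma, all of them higher, against 2.59% of genes above the median signal. A positive difference was found for 50.1% of those genes. For 15 members every *Mmp13*-/- array lay above every WT array, against 5.16% of those genes. Since the members vary together from array to array, their directions are not independent of each other.

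*Birc5*, which encodes survivin, a subunit of the chromosomal passenger complex, had the smallest unadjusted p of the members at 7 d. Its value was 6.62, 6.77 and 6.74 in WT and 7.27, 7.16 and 7.35 in *Mmp13*-/- tissue. The genotypes did not overlap, and the log2 difference was 0.55 (SE 0.19, 95% interval 0.16 to 0.94, adjusted p = 1). In an exact permutation test of 3 arrays against 3 the two-sided p was 0.1, the smallest that this design allows. *Birc5* is measured by a single probe set.

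The spindle checkpoint holds back anaphase until chromosomes are attached. Among the genes of this checkpoint and of anaphase control, which include *Birc5*, all 6 members were higher at 7 d, by a median of 0.30. *Bub1*, a checkpoint kinase, was 5.22, 5.35 and 5.07 in WT and 5.83, 5.54 and 5.72 in *Mmp13*-/- tissue (0.48, SE 0.19), with a dim second probe set of opposite sign at -0.16. *Cdc20*, the activator of the anaphase-promoting complex, was 7.46, 7.50 and 7.66 in WT and 7.87, 7.76 and 8.02 in *Mmp13*-/- tissue (0.34, SE 0.14), and its 3 probe sets had 1 sign. In neither gene did the genotypes overlap. *Mad2l1*, a checkpoint protein that binds CDC20, differed by 0.21 without overlap, and the checkpoint genes *Ttk* (0.26) and *Bub1b* (0.10) overlapped.

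The 3 centromere proteins had differences of similar size at 7 d, 0.36 for the centromeric histone *Cenpa*, 0.41 for the kinetochore motor *Cenpe* and 0.36 for the kinetochore protein *Cenpf*, none of them with overlapping genotypes. The further probe sets of *Cenpf* (-0.04 and -0.05) and the second of *Cenpa* (-0.10), all dim, had the opposite sign. The third of *Cenpa*, also dim (0.22), and the second of *Cenpe* (0.32) were positive. *Cenpa* was 6.98, 6.79 and 6.70 in WT and 7.19, 7.17 and 7.19 in *Mmp13*-/- tissue. The 2 genes of chromosome structure were higher by 0.41 (*Top2a*, the topoisomerase that untangles sister chromatids) and 0.48 (*Mki67*, the coat protein of mitotic chromosomes known as a proliferation marker). *Top2a* was 6.93, 7.39 and 7.41 in WT and 7.49, 7.56 and 7.91 in *Mmp13*-/- tissue, without overlap. Its further probe sets, both dim, gave 0.27 and 0.01. *Mki67* was 7.06, 7.76 and 7.65 in WT and 7.94, 7.75 and 8.23 in *Mmp13*-/- tissue, and 1 *Mmp13*-/- array lay under the highest WT array.

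In the other roles 7 of 23 members separated the genotypes at 7 d. The 6 mitotic kinases and cyclins differed by 0.08 to 0.25, led by *Cdk1* (0.25), the kinase that drives entry into mitosis, and its cyclins *Ccna2* (0.23) and *Ccnb2* (0.21), then *Plk1* (0.20) and the Aurora kinases *Aurka* and *Aurkb* (0.08 each), and of these *Ccna2* separated the genotypes. Spindle motors and midzone proteins ranged from 0.04 for *Kif23* to 0.43 for *Kif20a*, both kinesins of the late spindle. Between them lay *Tpx2* (0.38), which builds microtubules around chromosomes, *Prc1* (0.21), the bundler of midzone microtubules, *Nusap1* (0.21), a spindle protein, *Iqgap3* (0.17) and *Kif11* (0.10), the motor that pushes spindle poles apart. *Tpx2*, *Prc1*, *Nusap1*, *Iqgap3* and *Kif20a* separated the genotypes. The replication helicase and clamp genes, *Mcm2* to *Mcm7* and *Pcna*, ranged from 0.05 (*Mcm6*) to 0.34 (*Mcm5*) with a median of 0.13. *Mcm6* separated the genotypes at this small difference, with 7.81, 7.80 and 7.78 in WT and 7.85, 7.86 and 7.82 in *Mmp13*-/- tissue. The genes of nucleotide supply differed by 0.16 (*Rrm1*), 0.31 (*Rrm2*) and 0.11 (*Tyms*), where RRM1 and RRM2 form ribonucleotide reductase and TYMS makes thymidylate.

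Other probe sets of the same genes gave a second reading. Of 46 further probe sets of 26 members, 38 had a positive difference at 7 d, and so did 23 of the 24 with a mean above the median. Without WT replicate 1 of 7 d, the array with the low muscle and endothelial values, all 34 members were still positive with a median of 0.22. Endothelial markers were higher in 7 of 8 genes at 7 d, with group ranges of 5.27 to 6.99 in WT and 6.40 to 7.01 in *Mmp13*-/- tissue, and macrophage markers in 5 of 8, with 9.10 to 9.57 and 9.33 to 9.75. Fibroblast markers were higher in 7 of 10, with 10.78 to 11.12 and 10.98 to 11.19, with differences from -0.37 (*Lum*) to 0.90 (*Pdgfrb*) and none called. Adipocyte markers were lower in 4 of 4, with 6.30 to 8.10 and 5.88 to 6.92. The part of these cell types in the members' values was not tested.

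**Figure D2:**
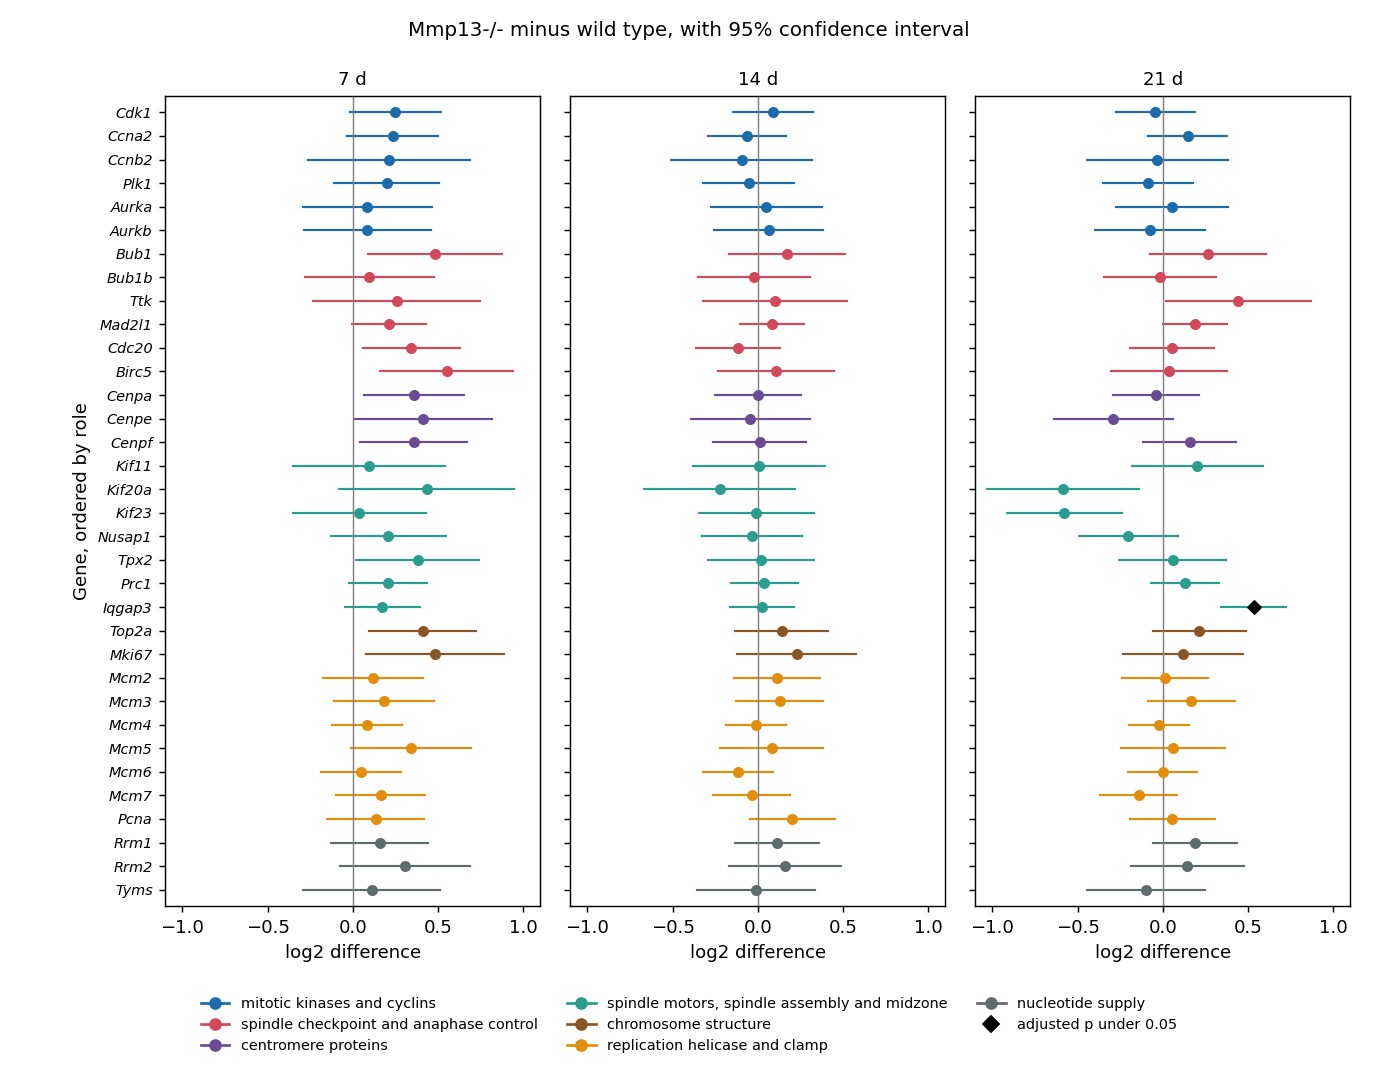
Log2 difference of *Mmp13*-/- minus WT for each of the 34 genes at 7, 14 and 21 d, with 95% confidence intervals from the limma fit, coloured by role and with a black diamond at an adjusted p under 0.05. All 34 points lie right of 0 at 7 d, they scatter around 0 at 14 d, and at 21 d *Iqgap3* is the 1 gene past the threshold while *Kif20a* and *Kif23* lie furthest to the left.

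At 14 d, 20 members were higher and 13 lower in *Mmp13*-/- tissue and *Cenpa* had equal means, with a median of 0.02. None was called (0.0178% of all probe sets were), none had an unadjusted p under 0.05 in limma (5.87% of genes above the median signal), and in no member did the genotypes separate. The differences ran from -0.23 for *Kif20a* to 0.23 for *Mki67*. *Pcna*, the sliding clamp of DNA polymerases, had the smallest unadjusted p among positive differences, at 0.20 (SE 0.12, adjusted p = 0.999). It was 11.17, 11.16, 11.06 and 10.86 in WT and 11.37, 11.48, 11.47 and 10.74 in *Mmp13*-/- tissue. The low array of each genotype was replicate 4, of hybridization series 2, and within series 1 all 3 *Mmp13*-/- arrays lay above the WT arrays. *Mcm6*, a helicase subunit, had the smallest unadjusted p among negative differences (-0.12, SE 0.10), with values of 8.07, 8.01, 8.12 and 7.94 in WT and 7.92, 8.06, 8.13 and 7.56 in *Mmp13*-/- tissue. Without WT replicate 1 of 14 d the median of the members was -0.0038, with 15 higher and 19 lower.

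Cell type markers also differed between the genotypes at 14 d. Fibroblast markers were lower in 9 of 10 genes in *Mmp13*-/- tissue, with means per array of 11.06 to 11.18 against 11.23 to 11.51 in WT tissue, and *Lum*, which encodes the collagen-binding proteoglycan lumican, was called lower (-0.94, adjusted p = 0.0274) and was also called lower averaged over the days (-0.61, adjusted p = 0.0111). Endothelial markers were lower in 8 of 8 genes, with 6.32 to 6.87 against 6.61 to 7.61. Keratinocyte markers were lower in 7 of 8, 6 of them with an unadjusted p under 0.05, with 3.77 to 4.07 against 4.02 to 5.89. The part of these cell types in the members' values was not tested.

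At 21 d, *Iqgap3* was called higher in *Mmp13*-/- tissue, and it was the 1 member called (0.0488% of all probe sets were). IQGAP3 is a scaffold protein of proliferating cells that binds small GTPases. Its value was 5.52, 5.23, 5.38 and 5.21 in WT and 5.65, 5.84, 6.03 and 5.95 in *Mmp13*-/- tissue. Every *Mmp13*-/- array lay above every WT array, which held for 1.2% of genes above the median signal. The log2 difference was 0.53 (SE 0.09, 1.45-fold, adjusted p = 0.0328), and the exact permutation p was 0.0286, the smallest for 4 arrays against 4. Its second probe set differed by 0.17 (adjusted p = 0.629). The call was lost without *Mmp13*-/- replicate 2 (adjusted p = 0.0558), replicate 3 (0.053) or replicate 4 (0.0751), at differences of 0.48 to 0.54. At the same difference as in the full fit it was also lost in a fit of the 21 d arrays alone (adjusted p = 0.834), with the replicate number as a block (0.0504), without the series term (0.0577) and with a variance trend on signal (0.0523).

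Members of both signs were found at 21 d. With *Iqgap3*, 20 were higher and 14 lower, with a median of 0.05, and this direction rested on single arrays. Without WT replicate 2 the median was -0.0775 with 12 higher, without *Mmp13*-/- replicate 4 it was -0.01 with 16 higher, and without *Mmp13*-/- replicate 2 it was 0.09 with 25 higher. In all, 5 members had an unadjusted p under 0.05 (3 higher, 2 lower) against 11.4% of genes above the median signal. *Kif23*, a kinesin of the midzone of the dividing cell, was 6.34, 5.69, 6.10 and 5.95 in WT and 5.31, 5.36, 5.21 and 5.88 in *Mmp13*-/- tissue. Of the *Mmp13*-/- arrays, replicate 4 overlapped the WT arrays, and the difference was -0.58 (SE 0.16, adjusted p = 0.151), while its dim second probe set gave 0.11. *Kif20a* differed by -0.59 (SE 0.21, adjusted p = 0.273), with 5.48, 4.51, 4.81 and 5.24 in WT and 3.79, 4.75, 4.40 and 4.75 in *Mmp13*-/- tissue. *Ttk* (0.44) and *Mad2l1* (0.19) had the other positive differences with an unadjusted p under 0.05. Endothelial markers were lower in 7 of 8 genes at 21 d, with means per array of 6.17 to 6.57 in *Mmp13*-/- and 6.47 to 7.11 in WT tissue, none of them called, and their part in the members' values was not tested. Averaged over the 3 days, 28 members were higher and 5 lower, with a median of 0.10, against 48.8% of genes above the median signal with a positive difference. None was called (0.0688% of all probe sets were), and 12 had an unadjusted p under 0.05, all higher, against 4%. The smallest adjusted p of the averaged difference was 0.153, for *Iqgap3* (0.24, SE 0.06).

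**Figure D3:**
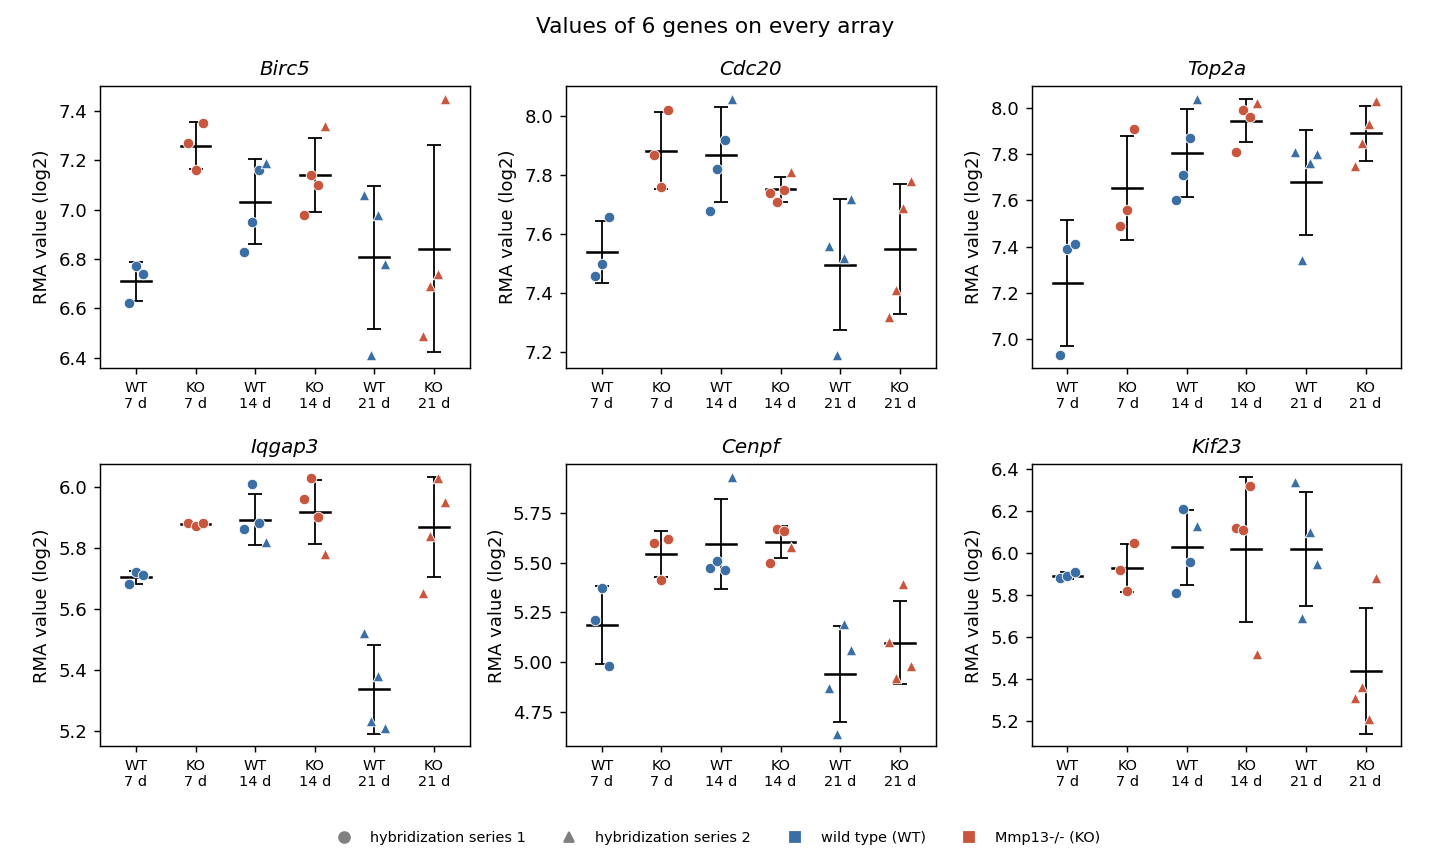
RMA values (log2) of 6 genes on every array, by genotype and day, with circles for hybridization series 1, triangles for series 2, a bar at the group mean and whiskers of 1 SD. *Birc5*, *Cdc20* and *Top2a* are lower on every WT than on every *Mmp13*-/- array at 7 d, *Iqgap3* is lower on every WT array at 21 d, *Cenpf* lies lower at 21 d than at 14 d in both genotypes, and 3 of 4 *Mmp13*-/- arrays are under all WT arrays for *Kif23* at 21 d.

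From 7 d to 14 d in WT tissue, all 34 members had a higher mean at 14 d, by a median of 0.29 against 0.01 over all genes above the median signal. This comparison and that of the genotypes at 7 d share the WT arrays of 7 d. No member was called, whereas 1.7% of all probe sets were, and 12 had an unadjusted p under 0.05 in limma, all higher, against 10.5% of genes above the median signal. A positive difference was found for 51.1% of those genes. For 17 members every array of 14 d lay above every array of 7 d, against 9.92% of those genes.

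*Top2a* had the smallest adjusted p of this step (0.51, SE 0.15, adjusted p = 0.0923). In WT tissue it was 6.93, 7.39 and 7.41 at 7 d and 7.60, 7.71, 7.87 and 8.04 at 14 d, without overlap (exact permutation p = 0.0286, the smallest for 3 arrays against 4). With dim probe sets left out of the test, *Top2a* (adjusted p = 0.0485) and *Mad2l1* were called, 2 of 33 members, where 4.84% of all probe sets tested were. *Mad2l1* was 7.18, 7.10 and 7.00 at 7 d and 7.31, 7.52, 7.37 and 7.50 at 14 d (0.34, SE 0.10). *Cdk1* was 6.79, 7.04 and 6.98 at 7 d and 7.18, 7.41, 7.45 and 7.21 at 14 d (0.42, SE 0.12), also without overlap. Per role, the median was 0.34 for the mitotic kinases and cyclins, 0.31 for the checkpoint and anaphase control genes and 0.35 for the centromere proteins. It was 0.26 for the spindle genes, 0.43 for chromosome structure, 0.24 for the helicase and clamp genes and 0.11 for nucleotide supply. All 24 further probe sets with a mean above the median were positive. Endothelial markers were higher at 14 d in 7 of 8 genes, 6 of them with an unadjusted p under 0.05, and fibroblast markers in 7 of 10, by a median of 0.19, with *Pdgfra* (0.75) and *Pdgfrb* (1.57) called higher. Adipocyte markers were lower in 3 of 4 genes, 2 of them with an unadjusted p under 0.05. Keratinocyte markers were higher in 7 of 8 genes, and their mean was 5.55 and 5.89 on WT replicates 1 and 3 of 14 d against 4.19 and 4.02 on replicates 2 and 4. Without WT replicate 1 of 7 d all 34 members were still higher, by a median of 0.28. The part of these cell types in the members' values was not tested.

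In *Mmp13*-/- tissue the same step gave a median of 0.07, with 25 members higher and 9 lower, and without replicate 2 of 7 d a median of 0.02 with 18 higher and 16 lower. Without replicate 3 of 14 d the median was 0.03. None was called (0.628% of all probe sets were), and 3 had an unadjusted p under 0.05, all higher, against 6.38% of genes above the median signal. *Pcna* had the smallest unadjusted p (0.36, SE 0.13, adjusted p = 0.422), with 11.15, 11.15 and 10.79 at 7 d and 11.37, 11.48, 11.47 and 10.74 at 14 d. *Cdc20* led the negative differences by its unadjusted p (-0.17, SE 0.13), with 7.87, 7.76 and 8.02 at 7 d and 7.74, 7.71, 7.75 and 7.81 at 14 d. In this step the fibroblast marker *Dcn*, which encodes decorin, was called lower (-0.48, adjusted p = 0.0128), as was the keratinocyte marker *Dmkn* (-2.21, adjusted p = 0.0185). In the fit, whose series term the genotypes share, fibroblast markers were lower in 6 of 10 genes and keratinocyte markers in 2 of 8. The plain keratinocyte mean per array was 4.19 to 4.33 at 7 d and 3.77 to 4.07 at 14 d, lower on every array. The part of these cell types in the members' values was not tested.

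The difference between the genotypes in this step was tested directly and no member was called, nor was any probe set (0% of all). In 33 of 34 members the step was smaller in *Mmp13*-/- than in WT tissue (49.9% of genes above the median signal had a negative value), by a median of -0.17. *Cdc20* was the 1 member with an unadjusted p under 0.05 in limma (-0.46, SE 0.18, adjusted p = 1), against 2.7% of genes above the median signal that were lower at that threshold. The 1 positive value was 0.07, for *Pcna*. This test uses the same arrays of 7 d as the genotype comparison of that day.

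**Figure D4:**
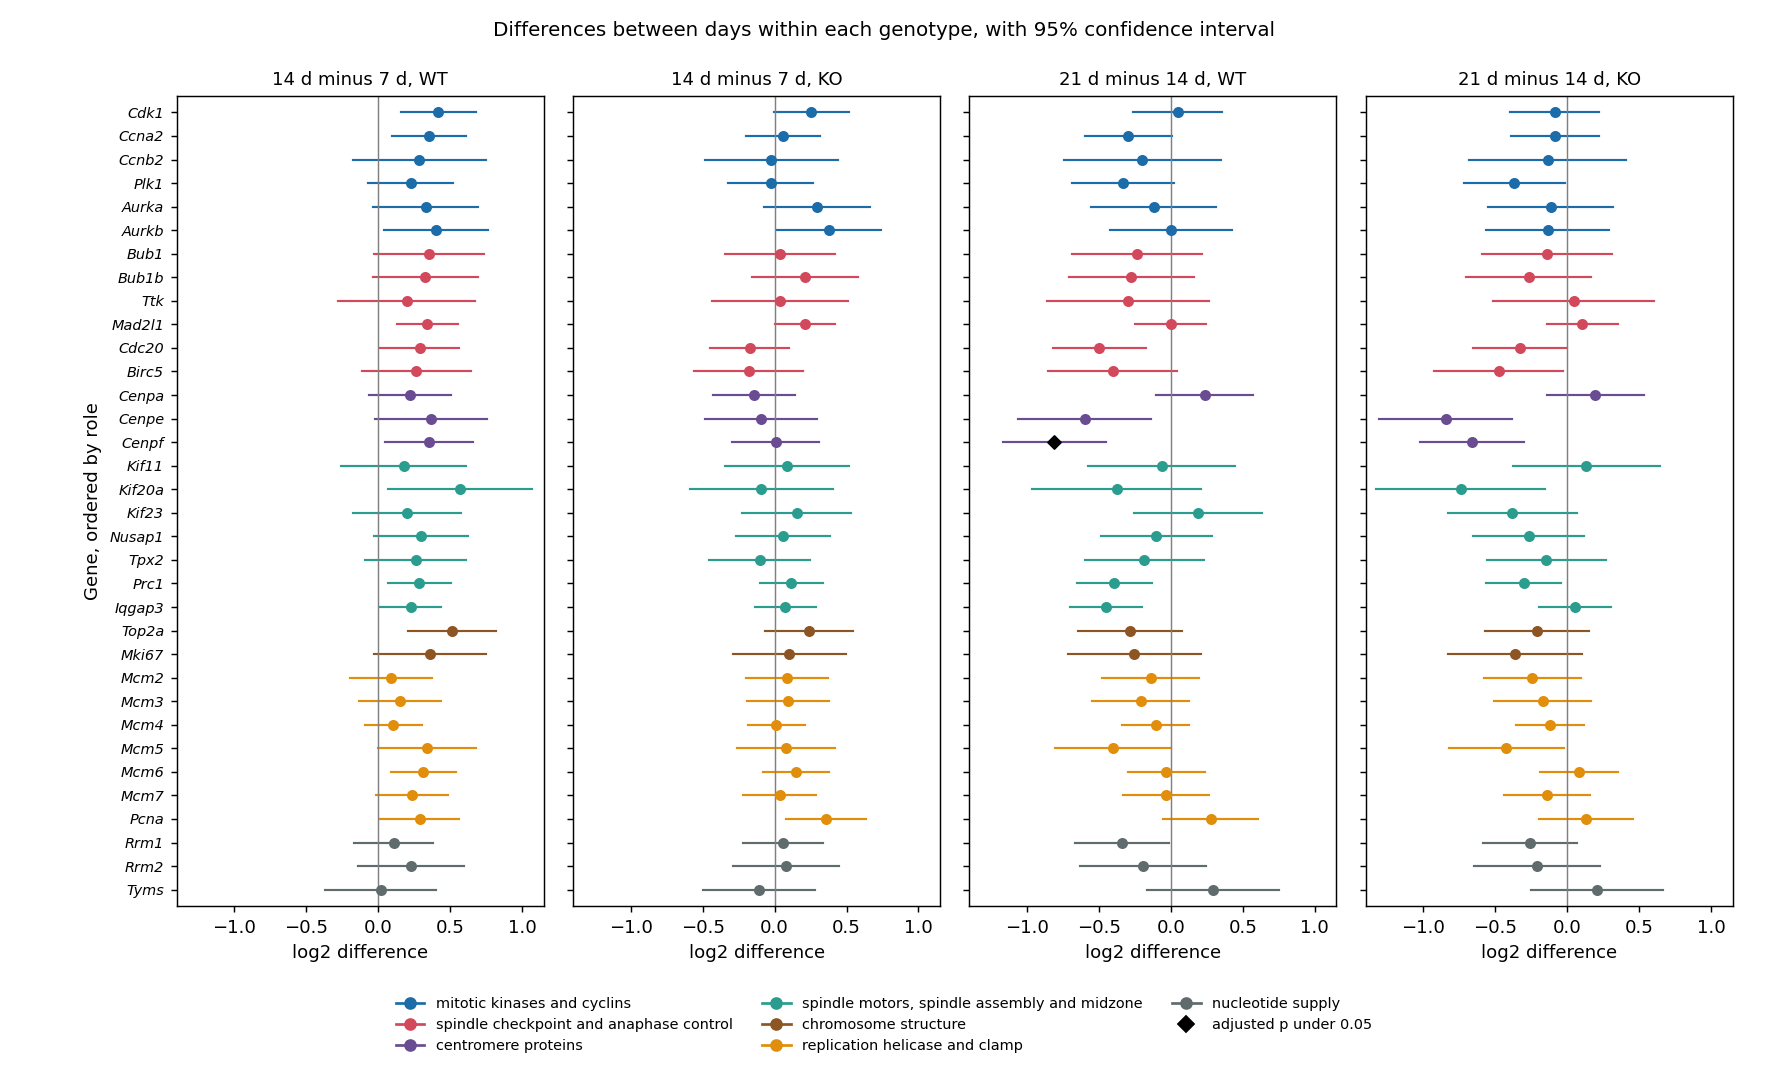
Log2 differences between consecutive days for each of the 34 genes in WT and in *Mmp13*-/- (KO) tissue, with 95% confidence intervals from the limma fit, coloured by role and with a black diamond at an adjusted p under 0.05. All points of the step from 7 d to 14 d in WT tissue lie right of 0, and most points of the step from 14 d to 21 d lie left of 0 in both genotypes, with *Cenpf* in WT tissue past the threshold.

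From 14 d to 21 d the series differed along with the day in all but 1 array per genotype. The adjustment rests on replicate 4 of 14 d of both genotypes, through 1 term that they share. In WT tissue 28 members were lower at 21 d, by a median over all members of -0.20, where 53.2% of genes above the median signal were lower. The median was -0.0892 without WT replicate 2 of 21 d, -0.0983 without WT replicate 4 of 14 d, -0.0675 with the replicate number as a block and -0.30 with the arrays of the compared groups alone. *Cenpf* was called lower, the 1 member called (0.42% of all probe sets were). It was 5.47, 5.51, 5.46 and 5.93 at 14 d and 4.87, 4.64, 5.19 and 5.06 at 21 d, without overlap, and replicate 4 of 14 d stood above the rest. The adjusted difference was -0.81 (SE 0.17, adjusted p = 0.0463), and the plain difference of means was -0.65. The further probe sets of *Cenpf*, both dim, gave 0.04 and 0.24. The call was lost on leaving out any 1 of WT replicates 1 to 4 of 14 d or replicates 1 and 2 of 21 d (adjusted p = 0.0618 to 0.495, the highest without replicate 4 of 14 d). It was also lost with the replicate number as a block (adjusted p = 0.205), where 1 probe set in all was called against 189 in the full fit, with the arrays of the compared groups alone (0.376) and within series 2 (0.912).

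In WT tissue 7 members were lower at 21 d with an unadjusted p under 0.05, namely *Cenpf*, *Cenpe*, *Iqgap3*, *Cdc20*, *Prc1*, *Rrm1* and *Mcm5*, against 10.2% of genes above the median signal. In 5 members every array of 21 d lay under every array of 14 d, against 9.12% of those genes. *Iqgap3* was 5.86, 6.01, 5.88 and 5.82 at 14 d and 5.52, 5.23, 5.38 and 5.21 at 21 d in WT tissue (-0.45, SE 0.12, adjusted p = 0.0906), and in *Mmp13*-/- tissue 5.96, 6.03, 5.90 and 5.78 at 14 d and 5.65, 5.84, 6.03 and 5.95 at 21 d (0.06, SE 0.12). *Pcna* had the smallest unadjusted p among positive differences in WT tissue (0.28, SE 0.16, adjusted p = 0.447), and its plain difference of means was -0.09. Without the series term, *Ccna2*, *Plk1*, *Cenpf*, *Iqgap3* and *Mcm5* were called lower in WT tissue, 5 of 34 members where 10.3% of all probe sets were called, and *Plk1*, *Cenpf*, *Kif23* and *Mcm5* in *Mmp13*-/- tissue, 4 of 34 where 5.6% were.

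In *Mmp13*-/- tissue 26 members were lower at 21 d, by a median over all members of -0.16, where 58.1% of genes above the median signal were lower. The median was -0.29 without replicate 4 of 14 d, -0.245 without replicate 4 of 21 d and -0.07 with the replicate number as a block. None was called (0.0799% of all probe sets were), and 8 were lower at an unadjusted p under 0.05 in limma against 9.59% of those genes. In 7 members every array of 21 d lay under every array of 14 d, against 7.3%. *Cenpf* was 5.50, 5.67, 5.66 and 5.58 at 14 d and 5.10, 4.92, 5.39 and 4.98 at 21 d, without overlap (-0.66, SE 0.17, adjusted p = 0.117). Its further probe sets, both dim, gave 0.005 and 0.315. *Cenpe* was 5.66, 5.82, 5.75 and 5.72 at 14 d and 4.91, 5.32, 4.90 and 5.54 at 21 d, also without overlap (-0.85, SE 0.22, adjusted p = 0.118). For both genes the plain difference of means was smaller in size than the adjusted one. The series term that the genotypes share was 0.37 for *Cenpe* and 0.21 for *Cenpf*. *Mmp13*-/- replicate 4 of 14 d lay within the range of its series 1 arrays for both genes. In WT tissue of 14 d, *Cenpe* was 6.35 on replicate 4 against 5.42 to 5.71 on replicates 1 to 3. *Cenpa* had the smallest unadjusted p among positive differences (0.20, SE 0.16, adjusted p = 0.625), with 7.05, 7.08, 7.08 and 6.90 at 14 d and 7.31, 7.00, 6.85 and 7.56 at 21 d.

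The genotypes' steps from 14 d to 21 d, compared directly, gave 17 positive and 17 negative values and no call among members or all probe sets (0% of all). Of the members, 2 had an unadjusted p under 0.05 in limma, against 5.83% of genes above the median signal: *Iqgap3* (0.51, SE 0.13, adjusted p = 0.525) and *Kif23* (-0.57, SE 0.23, adjusted p = 0.669).

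Among the cell cycle inhibitors, *Cdkn1a*, which encodes p21, was called lower at 21 d than at 14 d in WT tissue (-0.75, adjusted p = 0.0261), and the difference in *Mmp13*-/- tissue was -0.57 (adjusted p = 0.0952). *Cdkn2a*, the locus of p16INK4a, was called higher in WT tissue (1.92, adjusted p = 0.034), and the difference in *Mmp13*-/- tissue was 1.53 (adjusted p = 0.105). The plain differences of means of *Cdkn2a*, without the series term, were 3.61 and 3.22. At 14 d *Cdkn2a* was 3.52, 3.06 and 3.14 on the WT arrays of series 1 and 6.26 on that of series 2. In *Mmp13*-/- tissue it was 3.19, 3.62 and 3.76 in series 1 and 5.00 in series 2. With the replicate number as a block, 1 probe set in all was called in the WT step, against 189 in the full fit, so that the 2 calls were not both kept. For neither gene did the test of the difference between the genotypes' steps pass (adjusted p = 0.875 for *Cdkn1a* and 0.913 for *Cdkn2a*).

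Related genes from further lists were read in the same fit. Of 60 other mitosis genes, 49 were higher in *Mmp13*-/- tissue at 7 d, by a median of 0.18, and of 45 other replication genes found among 48, 32 were, by a median of 0.07. Among genes above the median signal 50.1% were higher. From 7 d to 14 d in WT tissue 47 of the 60 mitosis genes and 22 of the 45 replication genes were higher, against 51.1% of genes above the median signal. In that step *Pttg1*, the anaphase inhibitor securin, was called lower (-0.45, adjusted p = 0.0167), from 10.93 ± 0.16 (SD, n = 3) to 10.48 ± 0.08 (SD, n = 4). *Cdkn1c*, a kinase inhibitor, was called higher in WT tissue (1.63, adjusted p = 0.00822), from 7.04 ± 0.49 to 8.53 ± 0.49. None of the 26 genes of G1 cyclins, kinases and E2F factors and none of the 14 cell cycle inhibitors was called between genotypes at any day. Of all probe sets, 0.00888% were called at 7 d, 0.0178% at 14 d and 0.0488% at 21 d. Among the regulators, at 7 d the genotype difference was -0.07 for *Foxm1*, 0.22 for *Mybl2*, which encodes B-Myb, -0.02 for *E2f1*, 0.08 for *Ccnd1* (cyclin D1), 0.18 for *Cdkn1b* (p27) and -0.27 for *Cdkn1a*, each with an adjusted p of 1. At 7 d the genotypes did not overlap for *Cdkn1a*, which was lower, nor for *Mybl2*, which was higher. The *Mybl2* probe set is dim, with 3.85 to 3.95 in WT and 4.00 to 4.23 in *Mmp13*-/- tissue. Of genes above the median signal, 5.16% were higher without overlap at 7 d, and 442 of 11789 were lower. *E2f1* was lower in every *Mmp13*-/- array of 21 d (-0.33, SE 0.08, adjusted p = 0.0989).

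The members varied together from array to array. Over the 22 arrays the mean Pearson r of the 561 pairs was 0.37, with 512 pairs above 0, against 0.02 over pairs of all genes, and with group and series means removed it was 0.38. The mean r of a gene with the other members was highest for *Birc5* (0.52) and lowest for the dim *Tyms* (-0.15). These arrays share labelling, series and tissue makeup, and no test was made of them. Outside the members, the 10 genes whose values over the 22 arrays followed the mean of the members most closely were *Cks1b* (r = 0.85), *Spc25* (0.83), *Kif2c* (0.81), *Melk*, *Ect2*, *Pclaf*, *Ncaph*, *Cdca8*, *Vars* and *Tacc3* (0.73). CKS1B binds cyclin-dependent kinases, SPC25 is a kinetochore subunit and KIF2C a kinesin that takes microtubules apart, and 7 of the 10 stood in the list of other mitosis genes.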

How the data were processed

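Granulation tissue RNA was measured on 22 Affymetrix 3'IVT arrays, 1 sample per mouse. The authors normalized the arrays with RMA and deposited log2 values per probe set with 2 decimals. No version of RMA, and no word on whether the hybridization series were normalized together, was found (not given in the sources used here). Depth does not apply to arrays, and the number of arrays limits the precision.

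With R 4.3.3 and limma 3.58.1, 45037 probe sets were fitted (64 controls left out, no filter on signal) with 6 genotype-by-day means and the hybridization series as a term, followed by eBayes (15 residual and 4.57 prior degrees of freedom). P-values were adjusted by Benjamini-Hochberg over all probe sets in each of 10 comparisons. Exact permutation tests of single genes were two-sided. Probe sets were named from the platform annotation: 34945 had 1 gene, 932 several and 9160 were unnamed here. Of those with 1 gene, 34741 had their Entrez ID in the RefSeq gene table, and no symbol was updated. The median signal (4.22) is that of the probe set means. The steps were tested on simulated data.

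The members, the other lists and the comparisons were chosen with earlier results of these data known. Values on every array are given for called members and, per comparison, for the member with the smallest unadjusted p in each direction, with further members chosen after their values were seen. Of the other lists, up to 4 called genes per comparison and *Foxm1*, *Mybl2*, *E2f1*, *Cdkn1a*, *Cdkn1b* and *Ccnd1* are named, and *Mmp13* as the check of the labels. The 10 most similar genes were taken by Pearson r with the mean of the members. Alternatives were the series term, a replicate block, the arrays fitted, scaling, a signal filter, a variance trend, the second brightest probe set (members with 1 probe set kept it) and each array left out.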

Additional observations from a re-analysis of the deposited data

Results flagged for a closer look

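In 4 of 40 sets of 4 values, 1 array stood far from the others of its group. The sets are those of 9 genes and of the mean of the members over the same groups of 4 arrays, so they are not independent. Chance gives about 1 in 20 such sets where the arrays are alike, but each group of 14 d holds 1 array of series 2. *Cenpf* was 5.93 on WT replicate 4 of 14 d, with the next array at 5.51. The replicate 4 arrays of 14 d of both genotypes together set the series term, which enters the step to 21 d in both genotypes. *Cenpa* was 6.90 and *Pcna* 10.74 on *Mmp13*-/- replicate 4 of 14 d, with the next arrays at 7.05 and 11.37. Each of these 3 is the lone array of series 2 in its group. *Top2a* was 7.34 on WT replicate 2 of 21 d, with the next array at 7.76.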

How the results depend on the processing

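The direction of the members at 7 d and of the WT step to 14 d kept its majority: 29 to 34 members were higher in *Mmp13*-/- tissue at 7 d (median 0.15 to 0.29) and 31 to 34 higher at 14 d in WT tissue (median 0.24 to 0.32) over all settings and single arrays left out, and the fewest were found with the second brightest probe sets. No setting called a member between genotypes at 7 d or 14 d, averaged over days, from 7 d to 14 d in *Mmp13*-/- tissue, or in the tests of the steps. In WT tissue 2 members were called from 7 d to 14 d with probe sets above the median only.

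The *Iqgap3* call at 21 d was not kept (0 members called) without the series term, with the replicate block (adjusted p = 0.0504), with the compared arrays only, within series 2, with a variance trend or with the second probe set. In the WT step to 21 d, 5 members were called without the series term (4657 probe sets in all, against 189 in the full fit) and 0 with the replicate block (1 probe set in all), the compared arrays only, series 2 alone or the second probe set, and in *Mmp13*-/- tissue 4 were called without the series term (2523 in all). With single arrays left out, counts ran from 0 to 1 at 21 d and from 0 to 1 in the WT step to 21 d. The replicate block changed no other call among the members. Deviations of same-numbered arrays of the genotypes correlated between -0.16 and 0.61, above 0.1 in 6 of 11 pairs, and 5 of 22 arrays correlated best with their own number. All 4 pairs of 14 d were above 0.1 (0.12 to 0.61, the highest for the series 2 arrays), 2 of 3 of 7 d and none of 21 d.

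Some values turned sign. The median of the members ran from -0.0775 to 0.0929 at 21 d and from -0.0038 to 0.0867 at 14 d with single arrays left out. *Pcna* in the WT step to 21 d was -0.0875 without the series term. *Kif23* was 0.03 for the genotype difference in that step within series 2. With the second probe set, *Kif23* was 0.11 at 21 d and 0.12 averaged over days, *Cdc20* 0.0029 from 7 d to 14 d in *Mmp13*-/- tissue, and *Cenpf* 0.0375 (WT) and 0.005 (*Mmp13*-/-) from 14 d to 21 d. The genotype difference of *Pcna* in the step to 14 d ran from -0.0675 to 0.177 with single arrays left out, and was negative without WT replicate 1 (-0.0675) or *Mmp13*-/- replicate 3 (-0.05) of 7 d. The causes were not tested.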
